A study of Mus musculus with 12 samples.

Results

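Galectin-1 and galectin-3, encoded by Lgals1 and Lgals3, are the 2 genes described here, out of 5 galectin genes and 420 genes listed on a targeted RNA panel for mouse extracellular matrix (ECM) and cell adhesion. Their rule names the genes and uses no measured value, though it was written with earlier results of these data known. The panel was read in 12 libraries of pancreatic stellate cells (PSCs), the fibroblast-like cells of the pancreas that make much of the scar matrix of pancreatic tumors. Both WT and PKN2 KO PSCs were cultured for 72 h with TGF-β1 at 5 ng/ml or with its vehicle, and each of these 4 groups held 3 libraries, labelled A, B and C. PKN2 is a protein kinase, and TGF-β1 is a growth factor that drives stellate cells toward a contractile, matrix-producing myofibroblast state. All cells were immortalized with SV40 large T antigen, were of C57BL/6 background and came from the pancreas of 1 Rosa26CreERT2 PKN2 fl/fl mouse. Cre was therefore present in both genotypes, and the deletion was made in culture with 4-hydroxytamoxifen. Whether the WT PSCs were also given 4-hydroxytamoxifen is not given in the sources used here. The series text speaks of 3 lines per genotype, but nothing says that the lines came from separate animals, so p-values measure the spread between these cultures. Pkn2 was not among the listed genes, so its deletion could not be checked in these libraries.

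Galectins are soluble lectins that bind β-galactoside sugars on glycoproteins. They are made without a signal peptide, leave the cell by a non-classical route, and cross-link integrins, laminins, fibronectin and other glycoproteins at the cell surface and in the ECM. Galectin-1 has a single carbohydrate-binding domain and acts as a dimer; it is abundant in activated stellate cells and fibroblasts. Galectin-3 is the chimeric member of the family, with a proline- and glycine-rich tail that lets it form larger lattices, and it is widely known as a product of macrophages, epithelia and fibroblasts.

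In the GENCODE annotation of GRCm38 (mm10), Lgals1 (ENSMUSG00000068220) lies on the plus strand of chromosome 15, from 78926725 to 78930465, with 1 coding transcript of 4 exons and 800 bases. Lgals3 (ENSMUSG00000050335) lies on the plus strand of chromosome 14, from 47367751 to 47386160, with 3 coding transcripts, the first of which has 6 exons and 1419 bases. Neither gene overlaps another gene in the basic annotation. The position of the panel's primers within each gene is not given in the sources used here, so isoforms could not be told apart.

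Of the 2 genes, a RefSeq promoter was matched only for Lgals3, which is why this gene is shown. The 250 bases before its RefSeq start lie at chr14:47373610-47373859 on the plus strand of GRCm38.p6. The GENCODE gene begins farther upstream than this start. Capitals mark CAGAC, the core of the SMAD box bound by the transcription factors of the TGF-β pathway, and GGGCGG, the GC box, each searched on both strands.
Lgals3 promoter: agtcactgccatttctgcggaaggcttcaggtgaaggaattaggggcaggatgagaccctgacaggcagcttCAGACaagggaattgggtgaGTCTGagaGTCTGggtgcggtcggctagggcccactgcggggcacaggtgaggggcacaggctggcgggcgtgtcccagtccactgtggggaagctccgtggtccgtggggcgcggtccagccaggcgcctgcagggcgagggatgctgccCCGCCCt
CAGAC or its reverse complement was found 3 times, with first bases at positions -178, -158 and -150 from the start, and the GC box once, at -7. At least 1 CAGAC was present in 42.2% and at least 1 GC box in 32.7% of 32851 mouse promoter windows of the same length, so at least 1 match of either is not rare. How many windows held CAGAC 3 times was not counted. GGAATG, the motif of the YAP partner TEAD, was not found in this window and is present in 12.6% of windows. The AP-1 motif TGANTCA was likewise not found and is present in 6.75%. The window had a GC content of 66.0%, against a median of 52.4% over all windows. These matches describe the letters and do not show binding.

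Library totals ranged from 1074095 to 1473153 panel counts. Lgals1 was the most counted gene on the panel and took 15.8% of all counts, ahead of Col1a1 with 13.9%, Bgn with 9.46%, Sparc with 7.78% and Col1a2 with 2.83%. These 5 genes together held 49.7% of the counts. Counts of different genes depend on how well each target was amplified and are on no length scale, so this order is one of counts and not of RNA molecules. Lgals1 had between 140405 and 332597 counts per library and Lgals3 between 2298 and 19834. The widest 95% Wilson interval of a share in any library spanned 0.143 percentage points for Lgals1 and 0.0453 for Lgals3, which covers counting error only.

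Among markers of stellate cells and fibroblasts, Col1a1, Col1a2, Col3a1, Postn, Sparc and Fn1 each had at least 6342 counts in every library. The proteoglycans Lum and Dcn, also typical of fibroblasts, had at most 5 and 52 counts. Of 12 leukocyte markers 5 were at 0 in all libraries, and the macrophage genes Itgam, Itgax and Siglec1 had at most 1 count. In vehicle the 12 summed to normalized counts of 16.5 to 27.0 in WT and 25.4 to 38.2 in PKN2 KO. With TGF-β1 the sum was 5.77 to 9.44 in WT and 6.84 to 14.7 in PKN2 KO. Most of that sum was Itgb2, with 4 to 34 counts. The sum was lower after TGF-β1 and so moved with Lgals3, described next; its part in the Lgals3 result was not tested. In every library Lgals3 had at least 2298 counts. The 5 endothelial markers summed to 6.84 to 22.1 and the 5 epithelial markers to 2.44 to 26.1.

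Lgals3 was high in vehicle, fell several-fold with TGF-β1 in both genotypes, and after TGF-β1 had a 2.02-fold larger share of the counts in PKN2 KO PSCs than in WT PSCs. In WT vehicle the normalized counts were 13234, 13401 and 13801 in libraries A, B and C, a mean of 13479 ± 291 (SD, n = 3). In WT with TGF-β1 they were 2712, 2742 and 2934, with a mean of 2796 ± 121 (SD, n = 3). Each WT library given TGF-β1 was far below each WT library given vehicle, and the spread within either group was small. In PKN2 KO vehicle the values were 18947, 12890 and 20279, with a mean of 17372 ± 3938 (SD, n = 3). In PKN2 KO with TGF-β1 they were 6567, 4893 and 5677, with a mean of 5712 ± 838 (SD, n = 3). In normalized counts the PKN2 KO libraries were more scattered than the WT libraries. Library B was the lowest of the PKN2 KO libraries by this measure under both treatments. In share of panel counts, given below, the WT libraries were instead the more scattered relative to their mean, under both treatments. By share, library B was the lowest PKN2 KO library in vehicle but the highest with TGF-β1. The scatter thus depended on the measure, and its cause was not tested. Fewer cells expressing a gene and less RNA per cell cannot be told apart in such bulk libraries.

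**Figure D1:**
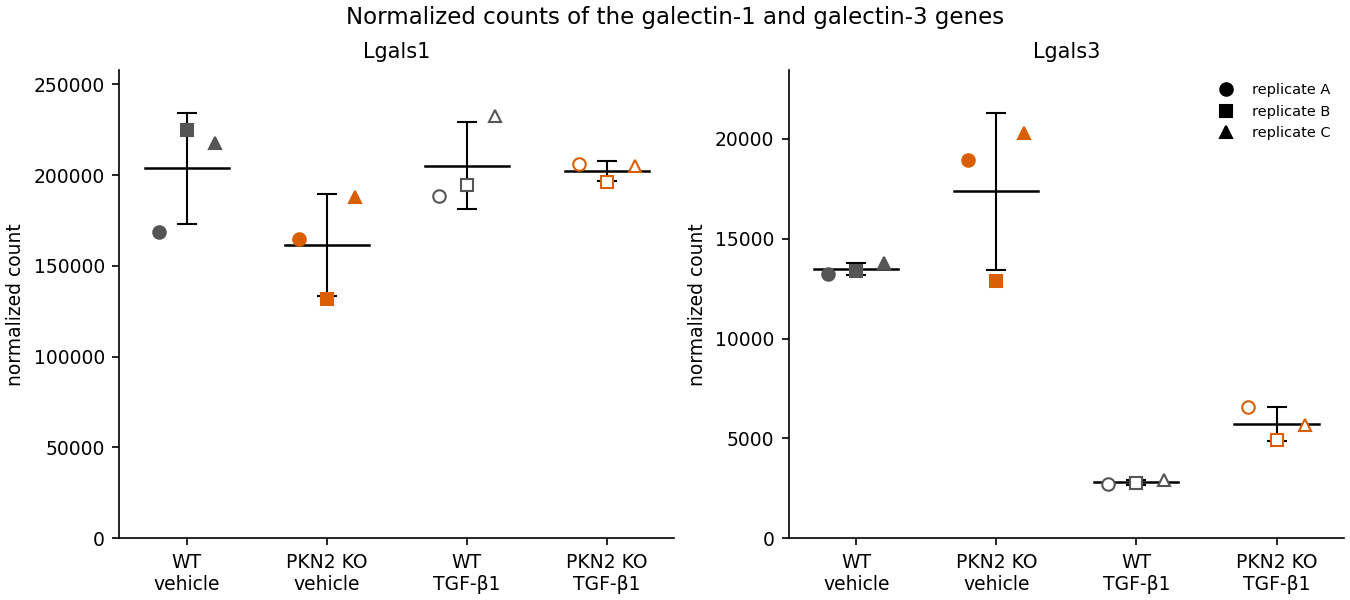
Normalized counts (linear axes from 0) of Lgals1 and Lgals3 in the 4 groups; each point is 1 library with its letter as the symbol, and lines and bars are the mean ± SD of 3 libraries. Lgals3 lies between 12890 and 20279 in the 6 vehicle libraries and between 2712 and 6567 in the 6 libraries given TGF-β1, while Lgals1 lies between 131889 and 232476 with PKN2 KO vehicle as the lowest group.

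With TGF-β1, Lgals3 fell by 2.27 on the log2 scale in WT PSCs (SE 0.20, limma on log2(normalized count + 1), adjusted p = 2.49e-07). It ranked 30th from the largest fall of the 238 genes tested. TGF-β1 moved a large part of the panel in WT: 50.8% of the genes tested passed the threshold, 26.9% as lower, and the groups did not overlap for 55.9%. In PKN2 KO PSCs Lgals3 fell by 1.59 (SE 0.20, adjusted p = 1.26e-05 by limma), which ranked 40th from the largest fall. There 48.7% of the genes passed, 29.0% as lower, and the groups did not overlap for 52.9%. The vehicle and TGF-β1 libraries did not overlap for Lgals3 in either genotype. Its fall was one of many, as the shares of genes called lower show.

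Comparing the genotypes after TGF-β1, Lgals3 was higher in PKN2 KO by 1.02 on the log2 scale (SE 0.20, 95% interval 0.58 to 1.46, adjusted p = 0.00238 by limma). All 3 PKN2 KO libraries lay above all 3 WT libraries. In this comparison 15.1% of genes passed, 8.82% as higher, and 28.2% had groups that did not overlap. By size, Lgals3 was the 21st largest rise. The median gene differed by 0.13 in the same direction, and relative to that median Lgals3 was higher by 0.89. Another scaling of the libraries shifts all genes of a comparison nearly alike, so this relative value cannot test the scaling.

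In vehicle, Lgals3 had a difference of 0.34 between PKN2 KO and WT (SE 0.20, 95% interval -0.10 to 0.77), which did not pass (adjusted p = 0.341 by limma). Libraries A and C of PKN2 KO were above all WT libraries and library B was below them. The difference was 0.54 without PKN2 KO library B and 0.21 without library C, and passed in neither fit (adjusted p = 0.0993 and 0.667 by limma). Other scalings made it smaller, at 0.11 by the median of ratios, 0.13 by TMM and 0.18 by totals without the 10 most counted genes. In this comparison 13.9% of genes passed, 10.9% as higher, the groups did not overlap for 32.4%, and the median gene was 0.21 higher in PKN2 KO.

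The order of the Lgals3 levels was therefore PKN2 KO vehicle, WT vehicle, PKN2 KO with TGF-β1 and WT with TGF-β1. The highest pair did not differ beyond its spread in normalized counts, the middle pair was far apart, and the lowest pair differed. The interaction, which asks whether the genotype difference changed with TGF-β1, was 0.68 for Lgals3 (SE 0.29, 95% interval 0.07 to 1.30) with an unadjusted p of 0.0326 and an adjusted p of 0.484 by limma. The interval is for this gene alone, and the call over all genes was not made. Of the genes tested, 3.36% passed for the interaction, and the number of calls depended on single libraries.

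**Figure D2:**
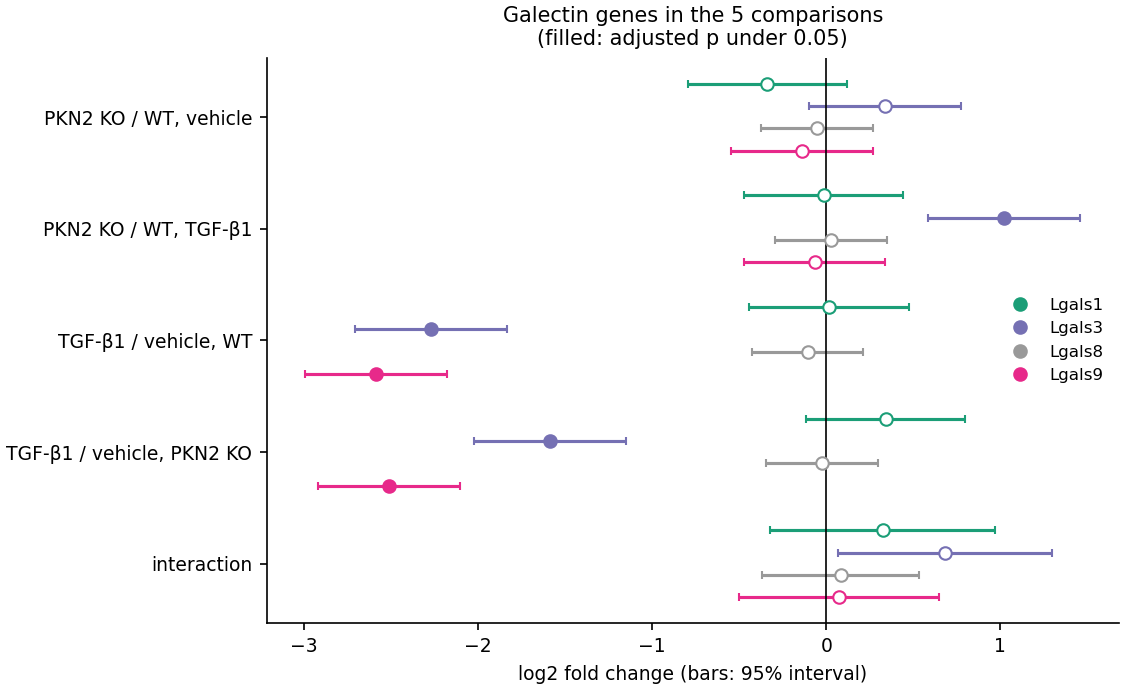
Log2 fold changes (horizontal axis) of the 4 galectin genes tested in the 5 comparisons; bars are 95% intervals from limma and filled points passed an adjusted p of 0.05. Lgals3 and Lgals9 lie at -2.27 and -2.58 with TGF-β1 in WT and at -1.59 and -2.51 in PKN2 KO, and Lgals3 at 1.02 is the filled point between the genotypes after TGF-β1.

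The share of all panel counts in a library uses no reference gene and gave the same order. Lgals3 took 1.04%, 1.35% and 1.21% of counts in WT vehicle libraries A, B and C. It took 1.48%, 1.37% and 1.49% in PKN2 KO vehicle. With TGF-β1 the shares were 0.170%, 0.253% and 0.209% in WT. They were 0.382%, 0.472% and 0.409% in PKN2 KO. Counted this way the genotypes did not overlap under either treatment, also in vehicle, where the normalized counts had overlapped. Shares did not overlap between genotypes for 35.7% of the genes tested in vehicle and for 40.8% after TGF-β1, so this was common on the panel. Lgals1 is a large part of the totals. With its counts left out, WT vehicle library B lay above every PKN2 KO vehicle library, so the vehicle separation depended on the denominator. In share, library B of PKN2 KO vehicle was 0.02 above library B of WT vehicle on the log2 scale, while the other pairs of libraries with one letter differed by 0.50 and 0.30.

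With genotype labels permuted within each treatment, the Lgals3 share was 1.56-fold higher in PKN2 KO over both treatments (exact permutation test, two-sided, p = 0.005, adjusted p = 0.0225 over 18 tests of shares and ratios). With treatment labels permuted within each genotype, it was 4.45-fold lower with TGF-β1 (exact permutation test, p = 0.005, adjusted p = 0.0225). A p of 0.005 is the smallest that the 400 arrangements can give, and how many other panel genes reach it was not counted. With Lgals1 left out of the totals, the genotype difference was 0.60 on the log2 scale instead of 0.64. Its p was then 0.02 by the exact permutation test, unadjusted and outside the 18 tests. The difference with TGF-β1 kept a p of 0.005 by that test. Single comparisons of 3 against 3 libraries cannot go below an exact p of 0.1, which each of the 4 Lgals3 shares reached. In these the share was 5.74-fold lower with TGF-β1 in WT, 3.45-fold lower in PKN2 KO, 2.02-fold higher in PKN2 KO after TGF-β1 and 1.21-fold higher in vehicle.

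Lgals1 passed the limma test in none of the 5 comparisons, and its lowest unadjusted p was 0.133. Its normalized counts in WT vehicle libraries A, B and C were 168406, 224727 and 217633, with a mean of 203589 ± 30680 (SD, n = 3). In PKN2 KO vehicle they were 164562, 131889 and 187683, with a mean of 161378 ± 28030 (SD, n = 3). With TGF-β1 they were 188431, 194699 and 232476 in WT, a mean of 205202 ± 23830 (SD, n = 3). With TGF-β1 in PKN2 KO they were 205909, 196042 and 204814, a mean of 202255 ± 5408 (SD, n = 3). The lowest group was PKN2 KO vehicle, and the means of the other groups lay within their spread of each other. All 3 PKN2 KO vehicle libraries were below all libraries given TGF-β1, but they overlapped the WT vehicle libraries. The lack of overlap with TGF-β1 in PKN2 KO was shared with 52.9% of the genes tested.

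In vehicle Lgals1 had a PKN2 KO to WT difference of -0.34 on the log2 scale (SE 0.21, 95% interval -0.80 to 0.12, adjusted p = 0.361 by limma). After TGF-β1 the difference was -0.01 (95% interval -0.47 to 0.44, adjusted p = 0.975 by limma). The change with TGF-β1 was 0.02 in WT (95% interval -0.44 to 0.47, adjusted p = 0.954 by limma) and 0.34 in PKN2 KO (95% interval -0.12 to 0.80, adjusted p = 0.239 by limma). The interaction was 0.32 (95% interval -0.32 to 0.97, adjusted p = 0.795 by limma). The intervals between the genotypes after TGF-β1 and with TGF-β1 in WT leave room for changes of up to about 0.47 in either direction, so an unaltered level is not shown. The direction of the small WT change was not stable, since it was -0.23 when libraries were scaled by their totals. Other scalings made the vehicle difference larger, at -0.40 by totals, -0.50 by totals without the 10 most counted genes and -0.55 by TMM. Of the scalings, it passed only with the median of ratios over genes (-0.57, adjusted p = 0.0352 by limma). Leaving out single libraries took the vehicle difference to -0.20 without PKN2 KO library B and to -0.47 without WT library A. The change with TGF-β1 in PKN2 KO was 0.20 without PKN2 KO vehicle library B and 0.14 when scaled by totals, and passed in neither.

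As a share of panel counts, Lgals1 took 13.3%, 22.6% and 19.1% in WT vehicle libraries A, B and C. The shares were 12.9%, 14.0% and 13.8% in PKN2 KO vehicle. They were 11.8%, 18.0% and 16.6% in WT given TGF-β1 and 12.0%, 18.9% and 14.8% in PKN2 KO given TGF-β1. The library labelled A had the lowest and the library labelled B the highest Lgals1 share in all 4 groups. Shares ran from 11.8% to 13.3% in the A libraries and from 14.0% to 22.6% in the B libraries, so libraries within a group differed by as much as groups did. Between libraries with one letter, the PKN2 KO to WT difference in log2 share was -0.047, -0.692 and -0.465 in vehicle for A, B and C. After TGF-β1 it was 0.022, 0.071 and -0.166. Over both treatments the share was 1.16-fold lower in PKN2 KO (exact permutation test, p = 0.255, adjusted p = 0.353), from -0.32 on the log2 scale without WT vehicle library A to -0.13 without WT vehicle library B. Over both genotypes it was 1.03-fold lower with TGF-β1 (exact permutation test, p = 0.8, adjusted p = 0.847).

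Dividing Lgals3 by Lgals1 within a library removes any scaling between libraries. WT vehicle libraries A, B and C held 7.86, 5.96 and 6.34 Lgals3 counts per 100 Lgals1 counts, with a mean of 6.72 ± 1.003 (SD, n = 3). PKN2 KO vehicle libraries held 11.5, 9.77 and 10.8, a mean of 10.7 ± 0.875 (SD, n = 3). With TGF-β1 the WT libraries held 1.44, 1.41 and 1.26, a mean of 1.37 ± 0.0945 (SD, n = 3). The PKN2 KO libraries with TGF-β1 held 3.19, 2.50 and 2.77, a mean of 2.82 ± 0.349 (SD, n = 3). No group overlapped another. How many other panel genes would separate the groups when divided by Lgals1 was not counted. The ratio was 1.81-fold higher in PKN2 KO over both treatments and 4.31-fold lower with TGF-β1 over both genotypes (exact permutation tests, p = 0.005 and adjusted p = 0.0225 for each, with all libraries in these directions). By treatment, the genotypes differed 1.60-fold in vehicle and 2.05-fold after TGF-β1. In vehicle, the log2 difference between PKN2 KO and WT minus that of the median gene was -0.55 for Lgals1 and 0.13 for Lgals3. After TGF-β1 these values were -0.145 and 0.891. The median gene was thus also higher over Lgals1 in PKN2 KO vehicle than in WT vehicle. A ratio shows unequal change of the 2 genes and does not say which of them moved.

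**Figure D3:**
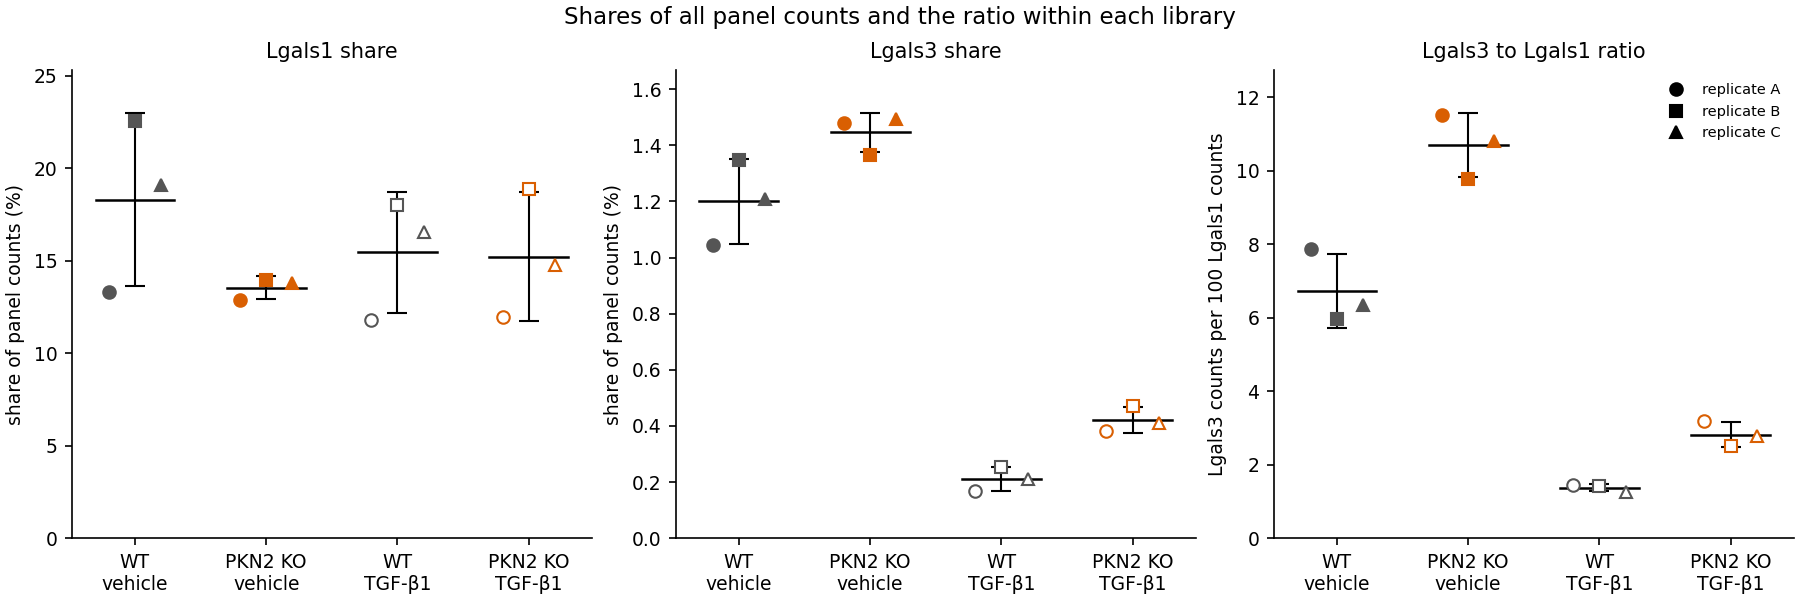
Share of all panel counts (%) taken by Lgals1 and by Lgals3, and Lgals3 counts per 100 Lgals1 counts, in each library (symbols give the letter), with the mean ± SD of 3 libraries per group. The Lgals1 share spans 11.8% to 22.6% with circles (A) lowest and squares (B) highest in every group, while the ratio separates all 4 groups, from 1.26 to 11.5.

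Of the other galectins, Lgals9, a tandem-repeat galectin with a pair of carbohydrate-binding domains, fell with TGF-β1 as Lgals3 did. In vehicle its normalized counts averaged 2832 ± 325 in WT and 2599 ± 554 in PKN2 KO, and with TGF-β1 474 ± 76.3 in WT and 449 ± 34.8 in PKN2 KO (SD, n = 3 each). It fell by 2.58 in WT and by 2.51 in PKN2 KO (limma adjusted p = 3.8e-08 and 6.19e-08). Between the genotypes Lgals9 had differences of -0.14 in vehicle and -0.07 after TGF-β1 (adjusted p = 0.716 and 0.870 by limma). Lgals8, another tandem-repeat galectin, averaged between 947 and 1017 in the 4 groups and passed in no comparison (adjusted p of 0.598 to 0.964 by limma). Lgals4, known from gut epithelium, had 0 to 28 counts per library and was too low to test. Of the 4 galectins tested, 2 fell with TGF-β1 in each genotype, where 26.9% of all genes in WT and 29.0% in PKN2 KO were called lower. After TGF-β1, Lgals3 was the 1 of 4 called higher in PKN2 KO, against 8.82% of all genes. The difference between Lgals3 and Lgals9 in genotype effect was not tested.

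Over the 12 libraries, the genes whose log2 normalized counts followed Lgals3 most closely were Adgre5 (Pearson r = 0.973), an adhesion receptor also called CD97, Tnxb (0.972), the matrix glycoprotein tenascin-X, and Serpinb1a (0.968), an intracellular inhibitor of neutrophil-type proteases. Lgals9 had an r of 0.911 with Lgals3 and ranked 21st of 237 genes, and Lgals1 had an r of -0.37. For Lgals1 the closest genes were Col11a2 (0.569), Ppie (0.536) and Adamts4 (0.528), so no gene followed it closely. These correlations share libraries, depth and the 4 groups, and describe the pattern only. Adgre5 averaged 517 normalized counts in WT and 713 in PKN2 KO without TGF-β1, and 159 and 304 with it. Serpinb1a averaged 446 in WT and 772 in PKN2 KO without TGF-β1, and 28.7 and 96.0 with it. Tnxb averaged 115 and 173 without TGF-β1 and was close to 0 with it, at 0.961 in WT and 4.48 in PKN2 KO.

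Glycoproteins known to bind galectin-1 or galectin-3 were taken as a list of 24 panel genes, of which 18 were tested. With TGF-β1 in WT, 11 rose and 3 fell, with a median change of 0.91 against 0.00 over all genes tested. Of all genes tested in WT, 23.9% were called higher and 26.9% lower. In PKN2 KO, 9 rose and 3 fell, with a median of 0.64 against -0.14, where 19.7% were called higher and 29.0% lower. The fall of Lgals3 was thus measured in the same libraries as a rise of 11 and of 9 of these ligand genes. Among the ligand genes, the integrin chain Itgb3 rose by 3.50 in WT, from 42.8 ± 24.2 to 472 ± 175 normalized counts (limma adjusted p = 1.6e-06). Tnc, the matrix glycoprotein tenascin-C, rose by 3.18 in WT and 3.27 in PKN2 KO (adjusted p = 2.94e-08 and 2.52e-08 by limma). Lamb3, a laminin chain, rose by 3.56 in PKN2 KO from an average of 1.57 to 29.8 (adjusted p = 6.51e-05 by limma).

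The ligand genes that fell in both genotypes were Lama5, Itga3 and Lamb2. Lama5, the α5 chain of laminin, fell by 2.37 in WT and fell by 2.38 in PKN2 KO (adjusted p = 2.44e-05 and 2.91e-05 by limma). Itga3, the α chain of a laminin-binding integrin, fell by 1.75 in WT and 2.12 in PKN2 KO (adjusted p = 6.93e-07 and 1.44e-07 by limma). Cd44, the hyaluronan receptor, rose by 0.98 in WT and 0.92 in PKN2 KO (adjusted p = 0.000673 and 0.00146 by limma). The ligand genes Vtn, Lama1, Lama2, Lama3, Lama4 and Muc1 did not exceed a normalized count of 21.2 in any library and were not tested.

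**Figure D4:**
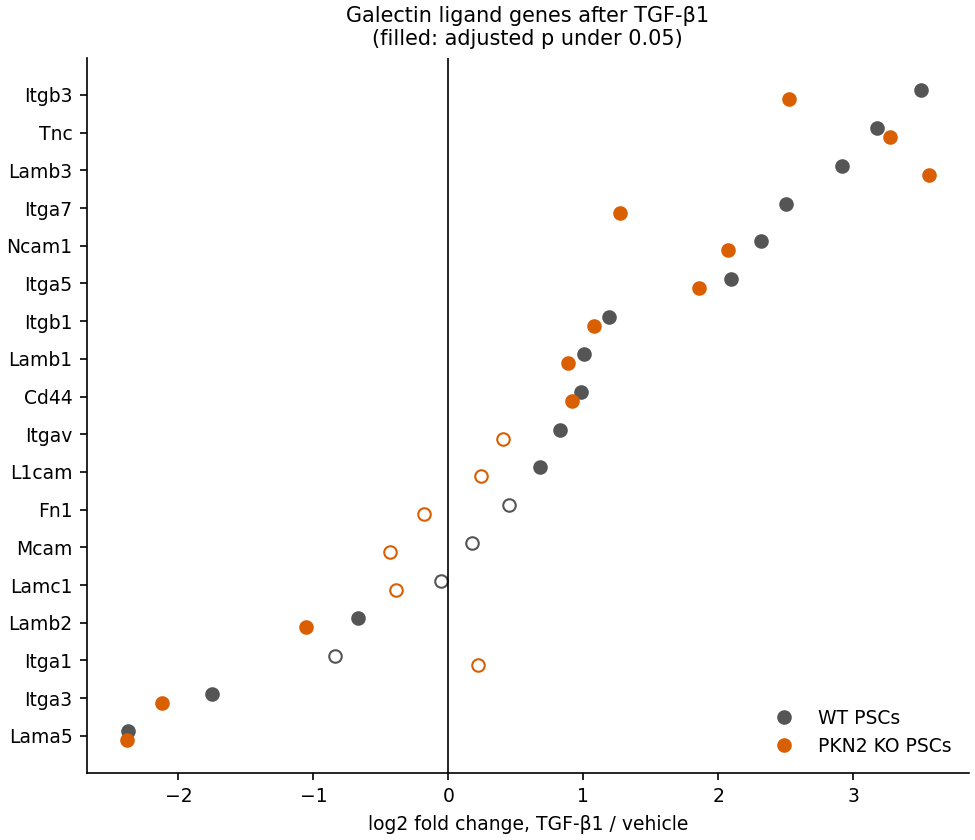
Log2 fold change with TGF-β1 (horizontal axis) of the 18 tested galectin ligand genes in WT and PKN2 KO PSCs, sorted by the WT value; filled points passed an adjusted p of 0.05 by limma. The points run from -2.37 (Lama5) to 3.50 (Itgb3) in WT, with 11 filled points to the right of 0 in WT and 9 in PKN2 KO.

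Between genotypes 13.9% of all genes tested passed in vehicle and 15.1% after TGF-β1, so fewer calls were made over the whole panel than with TGF-β1. In vehicle 4 of 18 were higher in PKN2 KO by limma and 3 by edgeR, with a median of 0.24 against 0.21 over all genes, of which 10.9% were called higher. Lama5 was higher by 1.96, at 355 ± 86.3 in PKN2 KO against 94.3 ± 42.2 in WT (SD, n = 3 each, limma adjusted p = 0.00142). Itga7, the α chain of a laminin-binding integrin, was higher by 1.60 (adjusted p = 0.00111 by limma), and Itgb3 and L1cam were the others. After TGF-β1 only Lama5 of the 18 passed, at 1.95 higher (adjusted p = 0.000737 by limma), with a list median of 0.07 against 0.13 over all genes, of which 8.82% were called higher. For the interaction 0 of the 18 passed in limma and in edgeR and 1 passed in DESeq2, while 2 had an unadjusted limma p under 0.05 (3.36% of all genes passed in limma). The median was -0.29 against -0.07 over all genes. Lama5, like Lgals3, was lower with TGF-β1 in both genotypes and higher in PKN2 KO than in WT after TGF-β1. Unlike Lgals3, Lama5 was also called higher in PKN2 KO in vehicle. How many other panel genes share the pattern of Lgals3 was not counted.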

How the data were processed

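Targeted RNA expression was analysed in 12 libraries of mouse PSCs, with 3 libraries (A, B and C in the labels) in each of 4 groups of genotype and TGF-β1. Members and gene lists were chosen with earlier results of these data known. Per the labels, RNA was read with a targeted panel. The processing notes name STAR, mm10 and DESeq2 1.32, and the methods name normalization to reference genes. Whether counts are unique molecules is not given in the sources used here.

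The authors deposited raw counts and normalized counts, a signal in which the counts of a library are divided by a single factor. Of the raw columns, 6 had repeated names and were not used. Normalized values were whole multiples of 1 step per library (100% within 0.01 reads), and the recovered reads equalled the raw counts of the other 6 columns for all 420 genes. These reads gave the totals and shares.

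The 238 genes that reached a normalized count of 10 in 3 or more libraries were tested with limma 3.58.1 (R 4.3.3; trend and robust) on log2(normalized count + 1), with 4 group means and Benjamini-Hochberg adjustment at 0.05. Fold changes are on that scale and understate changes of low genes. Shares and ratios were compared by exact two-sided permutation tests (scipy 1.17.1). Named genes were every galectin, the 5 most counted genes, the 3 genes most correlated with each member, and up to 2 ligand genes per direction and comparison; Itgb3, L1cam, Lamb2 and Cd44 beyond these were named after their values were seen. Alternatives were other scalings, pseudocounts and filters, edgeR 4.0.16, DESeq2 1.42.0, the replicate letter as a block and leaving out each library. For shares, Lgals1 was also left out of the totals. The fit was tested on simulated data. A planned check of the TGF-β1 exposure is not reported here.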

Additional observations from a re-analysis of the deposited data

How the results depend on the processing

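Between genotypes after TGF-β1, and with TGF-β1 in each genotype, Lgals3 kept its direction and its call in every other fit. In 15 other settings it ran from 0.82 to 1.03 between genotypes, -2.53 to -2.27 in WT and -1.78 to -1.52 in PKN2 KO. In the 12 fits that each left out 1 library it ran from 0.92 to 1.13, -2.305 to -2.248 and -1.79 to -1.46. The Lgals3 interaction passed when scaled by the median of ratios (0.79, limma adjusted p = 0.0243), as did the Lgals1 vehicle difference (-0.57, adjusted p = 0.0352 by limma). The Lgals1 change with TGF-β1 in WT turned to -0.23 with total scaling, -0.017 with TMM, -0.026 with the median of ratios and -0.24 with totals without the 10 most counted genes. With single libraries left out, the Lgals1 change with TGF-β1 in WT ran from -0.114 to 0.094, its genotype difference after TGF-β1 from -0.073 to 0.078, and its share difference with TGF-β1 over both genotypes from -0.153 to 0.046. The cause was not tested.

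Scaling moved the median gene between genotypes in vehicle from 0.21 to -0.02 (median of ratios), and the split of higher and lower calls from 26 and 7 to 19 and 20; after TGF-β1 the split went from 21 and 15 to 21 and 34 (TMM). Calls after TGF-β1 went from 36 to 65 with total scaling, 70 with totals without the 10 most counted genes, and 55 by either TMM or median-of-ratios scaling. Calls in vehicle went to 18 without WT library C, 18 without PKN2 KO library A and 20 without PKN2 KO library C. Interaction calls went from 8 to 4 without the variance trend. With 1 library left out they ran from 0 to 11 in limma: 0 without PKN2 KO vehicle library B (21 at an unadjusted p under 0.05) and 0 without WT TGF-β1 library C (16), and at most 3 in 7 other fits. They were 6 in edgeR and 11 in DESeq2 with all libraries. The Lgals1 interaction ran from 0.19 without PKN2 KO vehicle library B to 0.45 without WT vehicle library A.

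With the replicate letter as a replicate block, the Lgals1 vehicle difference (-0.34, limma adjusted p = 0.0335), the Lgals3 vehicle difference (0.34, adjusted p = 0.0149), the Lgals1 change with TGF-β1 in PKN2 KO (0.34, adjusted p = 0.0196) and the Lgals3 interaction (0.68, adjusted p = 0.000684) passed in limma. Calls rose from 33 to 87 in vehicle, from 36 to 101 after TGF-β1 and from 8 to 42 for the interaction. That fit gave an infinite prior for 197 of 238 genes. With the block and no variance trend, no call on either gene changed, and calls were 71, 90 and 17. The libraries share only a letter: same-lettered deviations had a mean correlation of 0.389 (-0.23 to 0.70, 13 of 18 over 0.1), and 10 of 12 libraries correlated best with their own letter. Each group held 3 libraries, which limits what could be detected.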
